A study of Oryza sativa Indica Group with 8 samples.

Results

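Transcript levels in rice roots kept without iron (Fe) were compared with those of control roots, both supplied with phosphorus (P). The comparison used 4 of the 8 arrays of the series, namely the 2 arrays labelled Fe deficiency and the 2 labelled control, chosen by their treatment labels. The plants were Oryza sativa Indica Group seedlings, the tissue was whole root, and total RNA was hybridised to the Affymetrix rice array. The design text gives 7 days of treatment, and the protocol notes give 10 days in hydroponic culture and seedlings of 5 days, without saying how these periods fit together. The other 4 arrays, 2 of roots lacking both P and Fe and 2 of roots lacking P alone, entered the estimate of the spread and served for a second, separate look at Fe withdrawal. Whether both arrays of a group stand for separately grown plants is not stated in the labels. The p-values therefore speak only for array-to-array spread, part or all of which may be technical. In whole roots, fewer cells of a type and less RNA per cell cannot be told apart.

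Grasses take up ferric iron by secreting mugineic acids, small chelators made from S-adenosylmethionine through nicotianamine, and by importing the iron complex with transporters of the YSL family. Rice can also take up ferrous iron through transporters of the IRT and Nramp families. When iron runs short, basic helix-loop-helix and IDEF transcription factors act on these genes, and vacuolar transporters and ferritin hold or release stored iron.

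The scale used throughout is the quantile-normalized intensity of a probe set, and changes are differences of log2(intensity + 16), Fe deficiency minus control. A probe set was called, and is said to have risen or fallen, at a limma adjusted p under 0.05 over all 57194 probe sets tested. The median normalized intensity of an array was 57.7. Before normalization the array medians were 53.3 and 48.1 in Fe deficiency and 48 and 54.4 in the control. The hybridisation spikes were dimmer on both Fe-deficiency arrays, with bioB at 913.5 and 677.9 against 1316 and 1343 on the control arrays, and their part in the results was not tested. Across probe sets the 2 Fe-deficiency arrays correlated at 0.974. For the pair of control arrays the value was 0.965, no higher than the 0.965 to 0.966 found between a control and an Fe-deficiency array. The 8 measured root tissue markers summed to 41049 and 41926 on the Fe-deficiency arrays and to 44419 and 41021 on the control arrays. Of these 8 genes 2 were higher and 6 lower in Fe deficiency. OsCASP1 (LOC4337453) had the largest change, at 905.1 and 1033 in Fe deficiency against 721.6 and 693.6 in the control (0.44, adjusted p = 0.468). The silicon transporter gene Lsi2 stood at 7719 and 7276 against 8411 and 8011.

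Genes of mugineic acid synthesis were mostly higher in roots without Fe, and 2 of the 10 measured rose, OsNAS2 and OsNAS1, while none fell. In the whole comparison 0.105% of probe sets rose. Both Fe-deficiency arrays lay above both control arrays for 9 of the 10 genes, as they did for 18.8% of all probe sets. The median change of the list was 0.64, against -0.01 over 17905 genes.

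OsNAS2 (LOC4332607), a nicotianamine synthase, stood at 13086 and 13211 on the Fe-deficiency arrays, against 3514 and 3030 on the control arrays. The groups lay far apart, and the change was 2.01 (SE 0.145, limma adjusted p = 0.0244). OsNAS1 (LOC4332608), which encodes a second enzyme of the same step, stood at 25367 and 24731 in Fe deficiency and at 8337 and 7857 in the control. Its change was 1.63 (SE 0.143, adjusted p = 0.0366), again with no overlap between the groups. The 2 genes lie next to each other on chromosome 3 in the gene order of the japonica reference. The third gene of the family, OsNAS3 (LOC4344361), stood at 3865 and 4440 without Fe and at 2546 on both control arrays, with a change of 0.70 that was not called (adjusted p = 0.202).

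The next enzyme of the route, the nicotianamine aminotransferase OsNAAT1 (LOC9267778), stood at 13553 and 12903 in Fe deficiency and 7399 and 7831 in the control. Its groups did not overlap, but the change of 0.80 was not called (adjusted p = 0.134). S-adenosylmethionine synthetases stand at the start of the route. SAM2 (LOC4326996) stood at 14674 and 13675 without Fe, against 9420 and 11698 in the control, and SAM1 (LOC4337733) at 24170 and 23604, against 25106 and 26876. Neither was called, with changes of 0.43 and -0.12, and SAM1 was the only list member with both Fe-deficiency arrays below both control arrays, which held for 20.2% of all probe sets.

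Recycling of methionine feeds the same route. ARD2 (LOC4331707) stood at 7216 and 7163 in Fe deficiency and 4113 and 3615 in the control (0.90, adjusted p = 0.143). ARD4 (LOC4348647) had a change of 0.44, OsIDI2 (LOC4350083) of 0.57 and OsIDI1 (LOC4348646) of 0.27, none of them called. The gene table lists heat shock factor names as well as ARD names for ARD2 and OsIDI1, so which protein these 2 loci stand for is uncertain here.

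All 8 measured genes of Fe and mugineic acid transport had both Fe-deficiency arrays above both control arrays, as did 20.8% of all genes. Of the 8 genes 1 rose, OsYSL15, against 0.19% of all genes. The median change of the list was 0.96, with a range of 0.31 to 1.98. OsYSL15 (LOC9268232), the root importer of iron bound to deoxymugineic acid, stood at 1674 and 2051 without Fe and at 437.6 and 482.0 in the control. The change was 1.98 (SE 0.174, adjusted p = 0.0366), the largest of the list.

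Close behind was OsNramp1 (LOC4342862), a divalent metal transporter, at 2915 and 2928 in Fe deficiency against 838.7 and 690.2 in the control. The groups were well apart and the change was 1.92, but the adjusted p of 0.0555 fell short of the threshold. OsNramp5 (LOC4342859), the main manganese importer of rice roots, stood at 2879 and 2886 without Fe and 2431 and 2205 in the control, a change of 0.31. OsYSL9 (LOC4336545) stood at 1586 and 1577 in Fe deficiency, against 637.1 and 595.3 in the control (1.34, adjusted p = 0.0645). OsYSL16 (LOC4336546), which lies near OsYSL9 with 3 genes between them, stood at 548.7 and 558.6 without Fe and 305.1 and 365.1 in the control (0.70, adjusted p = 0.32).

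The IRT genes were dimmer, and the change of OsIRT2 was less precise (SE 0.405) than that of OsIRT1 (SE 0.170). OsIRT1 (LOC4333669) stood at 147.5 and 192.3 in Fe deficiency and 117.7 and 113.9 in the control (0.49, adjusted p = 0.52). OsIRT2 (LOC4333667), separated from OsIRT1 by 2 genes, stood at 64.3 and 50.2 without Fe and at 33.6 and 4.59 in the control (1.19, adjusted p = 0.504). One control array of OsIRT2 was far below the other, so the size of its change is poorly fixed. OsYSL18 (LOC4327424) was also near the array median, at 72.8 and 64.1 in Fe deficiency and 25.7 and 46.7 in the control (0.72, adjusted p = 0.718).

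**Figure D1:**
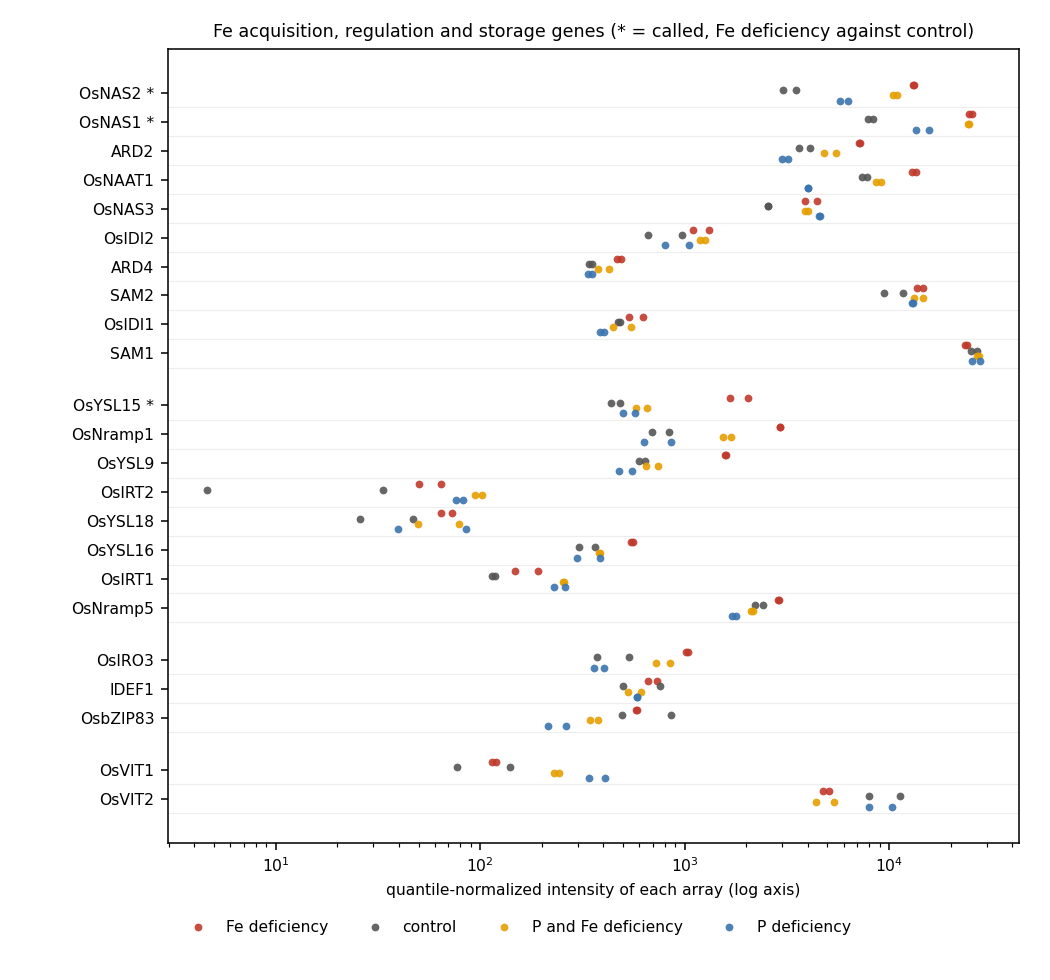
Quantile-normalized intensity (log axis) of every measured member of the Fe acquisition, regulator and storage lists on each of the 8 arrays, 2 points per group. The Fe-deficiency points of OsNAS2, OsNAS1, OsYSL15, OsNramp1 and OsYSL9 lie clear of and to the right of the control points, those of OsVIT2 lie below its control points, and those of IDEF1, OsbZIP83 and OsVIT1 fall between their control points.

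None of the 3 measured Fe regulators and neither of the 2 measured vacuolar transporter genes was called. Other genes sought for these lists, among them OsIRO2 and the ferritin genes, were not matched to a probe set by symbol. OsIRO3 (LOC4332972), a basic helix-loop-helix factor known as a negative regulator of the response, stood at 1015 and 1037 without Fe and 536.0 and 372.6 in the control (1.17, adjusted p = 0.167). The Fe-deficiency values of IDEF1 (LOC4344415), 729.5 and 663.9, lay within the control values of 500.1 and 756.9. Those of OsbZIP83 (LOC4351527), 575.7 and 583.4, likewise lay between 492.3 and 862.9 in the control. OsVIT2 (LOC4346978), which loads iron into the vacuole, was the one storage gene whose groups were apart, at 4751 and 5098 in Fe deficiency and 11325 and 7958 in the control (-0.95, adjusted p = 0.32). OsVIT1 (LOC4336075) stood at 119.4 and 114.0 without Fe, inside the control values of 76.7 and 139.8.

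The list drawn for iron and haem proteins, with related genes, showed little difference, as did most genes. Of 15 measured catalase, ascorbate peroxidase, ferredoxin and related genes 0 were called in limma, where 34 of all 17905 genes rose and 4 fell. Changes were under 0.5 in size for 14 of the 15, as for 15846 of the 17905. The exception was ADI1 (LOC4344439), for which the gene table lists ferredoxin as a synonym, at 4857 and 4429 in Fe deficiency and 6912 and 7262 in the control (-0.61, adjusted p = 0.248). OsAPx08 (LOC4329643), an ascorbate peroxidase, had a change of -0.35 and LFNR1 (LOC4339874) one of -0.23. Over all 21 measured YSL and Nramp genes, among them OsYSL15, OsNramp1 and OsYSL9, 1 rose, which was OsYSL15 itself, against 0.19% of all genes. Both Fe-deficiency arrays were above both control arrays for 11 of the 21, as for 20.8% of all genes, and the median change was 0.31. Of 10 ZIP and IRT genes (median 0.04, 3 with both arrays above) and of 12 copper, heavy metal ATPase and MTP genes (median -0.04, 4 with both arrays above) none was called. Both arrays lay above for 20.8% of all genes. OsZIP1 (LOC4326394) stood at 1051 and 1262 without Fe and 1606 and 1866 in the control (-0.58, adjusted p = 0.712), and OsCOPT2 (LOC4338846) at 233.7 and 195.8 against 129.3 and 154.5 (0.55, adjusted p = 0.43).

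Across the array 71 probe sets were called, which is 0.124% of those tested. Of these 60 rose and 11 fell, and the falls make up 0.0192% of all probe sets. The called probe sets matched 40 genes, 12 with a name and 28 with a locus number only, and 26 had no gene in the probe table. The rises had a median of 2.50, which is 5.65-fold on the scale used, and for 24 of them both control arrays lay below the array median. The falls had a median of -1.84 and none reached 8-fold. At an unadjusted p under 0.05 there were 2361 probe sets higher and 2406 lower. The 2 directions were thus near even at that level, while most called probe sets were rises. A further 125 higher and 73 lower probe sets had an adjusted p between 0.05 and 0.10.

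The number of calls depended on each of the 8 arrays. Without Fe deficiency replicate 2 none was called in limma (4117 at an unadjusted p under 0.05), and without replicate 1 there were 4. Leaving out either control array gave 9 calls, either P-deficiency array 10, and either array of the combined deficiency 7. A fit on the 4 arrays alone called none (4922 at an unadjusted p under 0.05, smallest adjusted p = 0.194). Among the named genes LTP2-B kept its call in 7 of the 8 fits that left out 1 array, AMY1.1 in 2, OsMT-I-2c in 2 through 1 of its probe sets and GRXC10 in 1. OsNAS1, OsNAS2, OsYSL15, OsIDS1, ML, Cht1, OsACA1 and CML15 kept it in 0 of the 8, with the adjusted p of OsNAS2 at 0.0892 to 0.304 and that of OsYSL15 at 0.107 to 0.318. The changes themselves moved little in those fits, between 1.90 and 2.11 for OsNAS2 and between 1.83 and 2.12 for OsYSL15. Only leaving out an Fe-deficiency or control array can move them.

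The largest rise on the scale used was that of AMY1.1 (LOC4330832), an alpha-amylase, a starch-degrading enzyme best known from germinating grain. It stood at 19355 and 20995 without Fe and at 37.9 and 2.92 in the control. Both control arrays lay below the array median, and the change of 9.30 (SE 0.507, adjusted p = 0.0101) ranged from 7.94 to 10.67 with an added value of 64 or 1. The other measured alpha-amylase genes were dim in both groups and none was called. AMY1.5 (LOC4342055) had a change of 0.25, AMY1.4 (LOC4345812) of 0.17, AMY1.3 (LOC4345814) of 0.14 and AMY1.2 (LOC4347262) of -0.04. The gene before AMY1.1 on chromosome 2 is LOC4330830, chosen here after its values were seen, which had 2 called probe sets. They stood at 2073 and 1344 in Fe deficiency against 60.8 and 39.2 in the control, and at 840.4 and 1253 against 2.01 and 10.5, with changes of 4.69 and 5.58.

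Of the 32 genes on the list of alpha-amylases, sugar transporters and trehalose enzymes 1 rose, AMY1.1, against 0.19% of all genes. OsTPP7 (LOC4346885), a trehalose-phosphate phosphatase known for anaerobic germination, stood at 121.4 and 100.9 without Fe and 1.12 and 15.01 in the control (2.46, adjusted p = 0.0815). OsSWEET15 (LOC4329464), a sugar exporter, stood at 147.8 and 149.3 without Fe and 24.2 and 50.1 in the control (1.67, adjusted p = 0.199). The 7 measured seed and endosperm markers summed to 1142 and 1407 on the Fe-deficiency arrays, against 914.3 and 826.9 on the control arrays. For 4 of the 7 both Fe-deficiency arrays were above both control arrays, as for 20.8% of all genes, and none was called. GLUA-3 (LOC4333164), a glutelin, stood at 244.7 and 272.0 without Fe and 63.1 and 51.0 in the control, and the prolamin gene LOC4342688 at 62.3 and 58.9 against 16.9 and 16.8. GLUA-1 (LOC4327027), another seed storage gene, stood at 1.56 and 3.93 in Fe deficiency and 2.12 and 2.07 in the control. The part of these seed markers in the amylase rise was not tested. GLUA-1 and the AMY genes other than AMY1.1 are given to fill out their lists, after their values were seen. So are Lsi2 above and, in what follows, OsLTPL1, the metallothioneins that were not called, PBZ1 and CYP99A3.

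LTP2-B (LOC4351317), a lipid transfer protein gene, had the smallest adjusted p of the comparison. It stood at 1992 and 2088 without Fe and at 15.6 and 18.8 in the control (5.95, SE 0.135, adjusted p = 0.000982). Both control values lay below the array median, and the change was 4.70 with an added value of 64 and 6.81 with 1. Its other 2 probe sets were not called, with values of 678.7 and 681.0 in Fe deficiency against 7.73 and 52.5 in the control on one, and 50.9 and 68.4 against 13.3 and 29.1 on the other. The neighbouring gene LTP (LOC4351318) stood at 287.2 and 430.5 without Fe and 43.7 and 65.6 in the control (2.40, adjusted p = 0.0908). Probe sets of such related genes can share sequence, so their signals may not be separate. The other members of the list stayed near the control or scattered, with OsLTPL1 (LOC4332993) at -0.29 and LTP-2 (LOC4331362) at 0.77, where the control arrays read 112.8 and 5.84.

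Metallothioneins, small cysteine-rich proteins that bind metals, included 2 of 7 genes that rose, against 0.19% of all genes. Both Fe-deficiency arrays were above both control arrays for 6 of the 7, as for 20.8% of all genes. OsMT-I-2c (LOC4337596) had 5 probe sets, all of them called, with changes from 1.93 to 3.20. The one with the smallest p stood at 15054 and 15857 without Fe, against 2899 and 2709 in the control (2.46, SE 0.136, adjusted p = 0.0101). OsIDS1 (LOC4352580), named after a barley clone specific to iron deficiency, stood at 19147 and 19087 in Fe deficiency and 5442 and 4576 in the control (1.93, SE 0.154, adjusted p = 0.0287). The remaining members had changes of 0.74 (OsMT-I-2b, LOC4326409), 0.38 (OsMT-I-1b, LOC4332487), 0.35 (OsMT-I-4c, LOC4352582), 0.30 (OsMT-1, LOC4351213) and -0.08 (OsMT-2, LOC4325218). Metallothionein genes resemble each other and 3 of the 5 OsMT-I-2c probe sets are of the type that can bind related transcripts, so their shares cannot be told apart here.

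Among glutaredoxins and thioredoxins, which reduce disulphides with glutathione or thioredoxin reductase, 1 of 32 genes rose, against 0.19% of all genes. GRXC10 (LOC4351046) stood at 593.6 and 643.8 without Fe and 16.1 and 36.9 in the control (3.95, SE 0.257, adjusted p = 0.0166). Next came GRXC15 (LOC4352426) at 248.7 and 297.8 in Fe deficiency against 16.2 and 41.5 in the control (2.74, adjusted p = 0.0606), and GRXC1 (LOC4325734) at 53.1 and 80.5 against 2.19 and 9.28 (1.93, adjusted p = 0.0829). All 3 had control values below the array median. The other 29 genes had changes under 0.5 in size.

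The remaining named rises were those of ML, Cht1 and OsACA1. ML (LOC4326471), a mannose-binding lectin also listed as salT, stood at 8671 and 8560 without Fe and 2716 and 2473 in the control (1.73, SE 0.138, adjusted p = 0.0287). Its second probe set stood at 19427 and 19355 against 9260 and 9216 (1.07, adjusted p = 0.0943). Cht1 (LOC4338719), a chitinase, stood at 2422 and 2401 in Fe deficiency and 783.9 and 783.2 in the control (1.60, SE 0.13, adjusted p = 0.0294). OsACA1 (LOC4326507) was dim, at 82.5 and 72.5 without Fe and 2.93 and 6.75 in the control, and its change was 2.17 (SE 0.178, adjusted p = 0.0294), or 1.04 and 3.83 with an added value of 64 and 1.

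Most of the large rises belonged to genes known only by a locus number, as most measured genes were (2458 of 17905 had a name). LOC9268392 stood at 3626 and 3950 in Fe deficiency and 40.6 and 29.9 in the control (6.22), and its neighbour on chromosome 12, LOC4352346, at 788.2 and 878.5 against 14.1 and 36.3 (4.42). LOC4340877 stood at 1104 and 1158 without Fe and 1.01 and 4.60 in the control (5.94). LOC4334975 stood at 781.9 and 997.1, against 3.01 and 7.42 in the control (5.41). These were genes near the bottom of the scale in the control and well above the array median without Fe.

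Other locus-only genes reached higher levels. LOC4350823 stood at 9710 and 9352 without Fe and 233.4 and 181.4 in the control (5.43, adjusted p = 0.00168). Beside it on chromosome 11, LOC4350822 stood at 5565 and 5020 against 2322 and 2405 (1.16, adjusted p = 0.0674), and LOC4350821 at 7599 and 7328 against 1039 and 1171 (2.74, adjusted p = 0.0103). LOC4352472 stood at 3151 and 3040 without Fe and 79.3 and 38.8 in the control (5.43, adjusted p = 0.00911). LOC4352346, LOC4350821 and LOC4350822 are named for their position beside a called gene, after their values were seen.

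Apart from LOC9268392, LOC4340877, LOC4352472, LOC4350823 and LOC4334975, 20 probe sets of 19 genes with only a locus number rose, by 1.65 to 5.58, and these include LOC4352346, LOC4350821 and both probe sets of LOC4330830. Of the called genes 3 pairs were direct neighbours in the reference gene order, OsNAS2 with OsNAS1, LOC4330830 with AMY1.1 and LOC9268392 with LOC4352346, and 1 pair, LOC4350821 with LOC4350823, had 1 gene between. Without a gene in the probe table there were 20 probe sets that rose. The largest of these stood at 443.2 and 441.6 in Fe deficiency against 2.41 and 1.66 in the control (4.67). The next were at 258.4 and 281.7 against 1.86 and 10.7 (3.71) and at 298.7 and 336.8 against 12.9 and 11.2 (3.57).

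**Figure D2:**
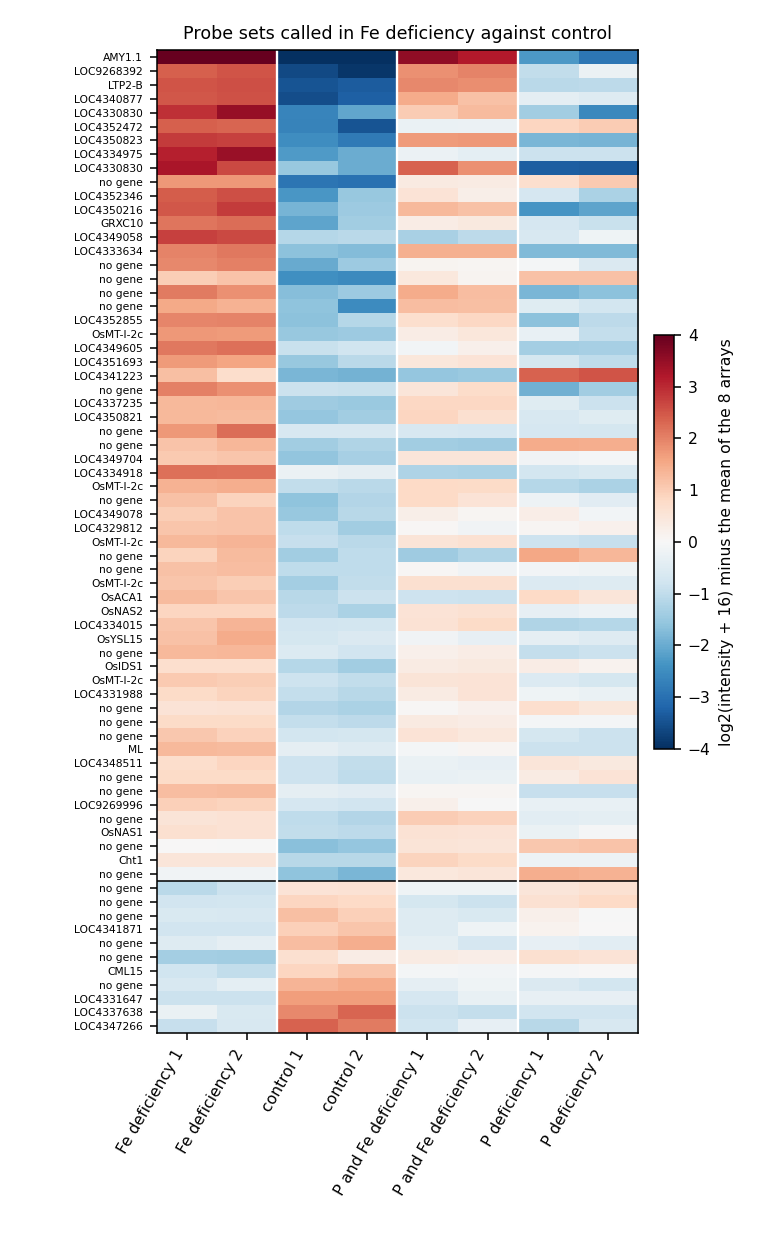
The 71 called probe sets (rows, largest rise at the top, falls below the line) on the 8 arrays (columns), each as log2(intensity + 16) minus the mean of the 8 arrays, with colours ending at -4 and 4. The Fe-deficiency columns are red in nearly all and the control columns blue in all of the upper block of 60, and in the lower block of 11 the control columns stand out in red from most of the other 6.

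Falls were fewer and smaller, and CML15 was the only named gene among them. CML15 (LOC4338633), a calmodulin-like calcium sensor, stood at 395.6 and 348.2 without Fe and 1299 and 1525 in the control (-1.88, SE 0.153, adjusted p = 0.0294). It was also the 1 member called of 74 calcium sensor genes, whose median was -0.05, where 4 of all 17905 genes fell. The related CML16 (LOC4325693) stood at 1641 and 1579 in Fe deficiency and 3407 and 3660 in the control (-1.13, adjusted p = 0.0821). The 4 other genes that fell have only a locus number. LOC4347266 stood at 34.9 and 45.8 without Fe against 472.9 and 391.7 in the control (-2.99), LOC4337638 at 181.0 and 138.8 against 882.2 and 1171 (-2.56), LOC4331647 at 731.5 and 727.7 against 4335 and 4270 (-2.53) and LOC4341871 at 3166 and 3159 against 10307 and 11571 (-1.78). The first 3 were the only falls of at least 4-fold.

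Another 6 falls had no gene in the probe table, and most were dim. The largest of them stood at 4.54 and 8.46 without Fe and 65.1 and 73.0 in the control (-1.92). Another stood at 12.8 and 12.3 against 99.0 and 75.5 (-1.84), and the one after it at 6.22 and 8.71 against 58.3 and 71.6 (-1.78). For such probe sets the size depends on the added value, and that of the first ranged from -3.27 with an added 1 to -0.92 with an added 64.

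Defence genes mostly had higher values without Fe, with few or no calls. Of 11 measured pathogenesis-related genes, mostly chitinases, 1 rose (Cht1), against 0.19% of all genes. Both Fe-deficiency arrays were above both control arrays for 10 of them (20.8% of all genes), with a median of 0.48. PBZ1 (LOC4352491), a PR10 protein, stood at 17257 and 18335 without Fe and 10209 and 9004 in the control (0.89, adjusted p = 0.141), and OsChia1a (LOC4342115) at 2822 and 3146 against 1530 and 1315 (1.06, adjusted p = 0.104). OsChia4a (LOC4336265) had the largest change at 1.68 but an adjusted p of 0.288. Of 15 genes of diterpenoid phytoalexin synthesis, antimicrobial compounds of rice, 0 were called, and 9 had both Fe-deficiency arrays above both control arrays (20.8% of all genes), with a median of 0.71. OsDTS2 (LOC4335094) stood at 260.9 and 296.5 in Fe deficiency and 103.0 and 73.8 in the control (1.51, adjusted p = 0.118), OsCPS2 (LOC9266189), a copalyl diphosphate synthase, at 524.1 and 504.4 against 242.2 and 139.2 (1.40, adjusted p = 0.165), and CYP99A2 (LOC4335096) at 769.9 and 812.6 against 348.2 and 279.7 (1.30, adjusted p = 0.108). CYP99A3 (LOC4335091), of the same gene family, stood at 4147 and 4001 against 3943 and 3563, a change of 0.12.

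Stress and hormone lists had no calls beyond CML15. Over all 17905 genes 34 rose and 4 fell, so lists without a call, here and below, stand near that share. None of the 36 jasmonate genes was called (median -0.07). Both Fe-deficiency arrays were below both control arrays for 14 of the 36, as for 4176 of the 17905, and above for 6, as for 20.8% of all genes. OsJAZ10 (LOC4331834), a repressor of jasmonate signalling, stood at 1785 and 1756 without Fe and 3321 and 3342 in the control (-0.91, adjusted p = 0.101). Of 5 DREB1 genes, cold and drought response factors, none was called. OsDREB1B.1 (LOC4347618) stood at 137.3 and 103.3 in Fe deficiency and 785.7 and 784.0 in the control (-2.57, adjusted p = 0.0572), and CBF3 (LOC4347620) at 193.2 and 194.0 against 695.2 and 590.7 (-1.65, adjusted p = 0.0849). OsDREB1E (LOC4336721) had overlapping groups, at 73.7 and 48.4 without Fe and 62.2 and 97.8 in the control. Ethylene genes (20, median -0.04, the list also holding OsDREB1B.1 and CBF3) and WRKY genes (6, median -0.01) had no calls, and OsWRKY71 (LOC4328512) stood at 1421 and 1439 without Fe and 2262 and 2486 in the control (-0.72, adjusted p = 0.379).

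Phosphate genes, which respond to the other nutrient of the study, had no calls either. Among 11 phosphate starvation genes the median was 0.11, with OsSPX3 (LOC4348535), an SPX phosphate sensor, at 88.2 and 118.5 in Fe deficiency and 10.9 and 30.4 in the control (1.74, adjusted p = 0.142). OsSPX5 (LOC4333078) stood at 325.5 and 343.7 against 151.2 and 119.9 (1.22, adjusted p = 0.0821), and OsMGD2 (LOC4345212), a galactolipid synthase, at 68.3 and 59.9 against 27.5 and 21.7 (0.98, adjusted p = 0.127). The 9 PHT1 phosphate transporters had a median of -0.07. Aquaporins (25 genes, median 0.02), expansins (29, median 0.01), peroxidases and laccases (11, median -0.31) and glutathione S-transferases (6, median -0.21) also had 0 calls in limma.

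No marker of dividing cells, photosynthesis or root tissues was called in limma. Of 57 genes of dividing cells the median was -0.09, and they summed to 66328 and 68251 without Fe against 67345 and 67214 in the control. The 5 photosynthesis genes summed to 39633 and 42951 against 47460 and 44947, with OsrbcS (LOC4351966), the Rubisco small subunit, at 7462 and 7595 in Fe deficiency and 11394 and 9966 in the control (-0.50, adjusted p = 0.387). RBCS1 (LOC4352014), another Rubisco gene, was near the bottom of the scale without Fe, at 1.27 and 1.43 against 35.3 and 27.8 in the control. The summed shoot markers did not overlap between the groups. The 8 root tissue genes had a median of -0.05.

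**Figure D3:**
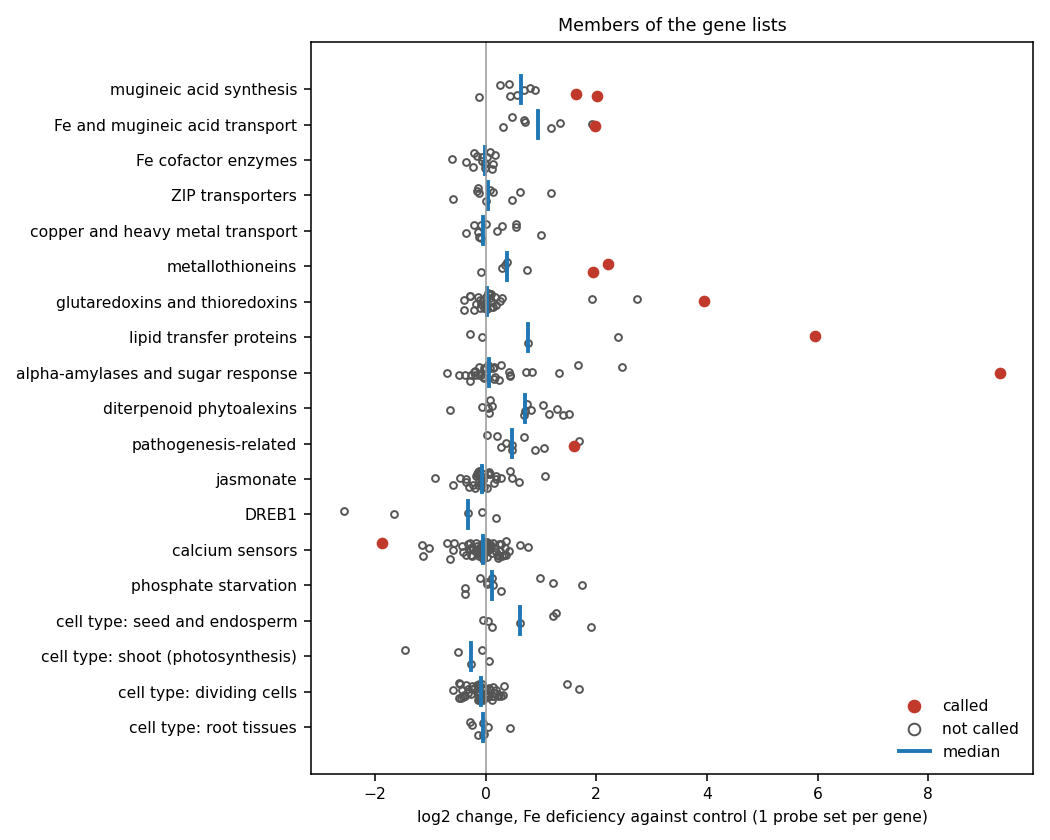
Change of each measured member of 19 gene lists in Fe deficiency against the control (horizontal axis, log2), with called members filled and the list median as a bar. The medians of mugineic acid synthesis (0.64) and Fe and mugineic acid transport (0.96) lie right of 0, those of Fe cofactor enzymes (-0.01) and jasmonate genes (-0.07) lie at or just left of it, and single called genes such as AMY1.1 and GRXC10 lie far from the rest of their lists.

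Further named genes had separate groups and an unadjusted p under 0.01 without passing the threshold, 70 of them higher and 28 lower. The largest were OsSAG12 (LOC4324982), a protease gene of the senescence type, at 821.1 and 1031 without Fe and 106.5 and 18.2 in the control (3.86, adjusted p = 0.112), and Oskn1 (LOC4333973), a homeobox gene, at 313.9 and 368.6 against 9.97 and 24.6 (3.46, adjusted p = 0.0555). OsYAB2 (LOC4333584), of the YABBY family, had a change of 2.50, NH5 (LOC4351457) of 2.06, GL2-2 (LOC4337074) of 2.02 and Pi21 (LOC4335725) of 2.01. OsEXPB18 (LOC4338206), a beta-expansin, stood at 149.9 and 136.1 without Fe and 37.7 and 4.58 in the control (2.26, adjusted p = 0.212). On the lower side, OsSAP17 (LOC4346945) stood at 206.8 and 258.2 in Fe deficiency and 636.4 and 786.1 in the control (-1.55, adjusted p = 0.124). OsC3H55 (LOC4344611, -1.95), TOM20 (LOC4327752, -1.80), OsBURP13 (LOC4345929, -1.75), OsPP2C73 (LOC4349568, -1.60), RBCS1 (LOC4352014, -1.45) and OsNIP4;1 (LOC4326119, -1.14) were dim in both groups.

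Fe withdrawal was also measured in roots lacking P, by the combined deficiency against P deficiency, whose 4 arrays entered the comparison above only through the normalization and the estimate of the spread. The calls of both comparisons share that estimate. There 18 probe sets were called, 0.0315% of those tested, of which 13 were higher (0.0227%) and 5 lower (0.00874%). They include 7 of the 60 rises and none of the 11 falls. Of the 60 probe sets that rose with P supplied, 45 were higher in the combined deficiency too, where 48.9% of all probe sets were higher. At least 2-fold higher were 30 of the 60, against 2.79% of all probe sets, and 42 had groups apart in the same direction, against 20.3%. Of the 11 falls 9 were lower again, where 48.9% of all probe sets were higher. The groups were apart in that direction for 7 of the 11, against 21.5% of all probe sets. At least 2-fold lower was 1 of the 11, a probe set without a gene (-1.47), as were 2.6% of all probe sets. The 60 rises had a median change of 1.00 without P, and the 11 falls one of -0.16. Smaller changes are in part what a choice by the first comparison gives, so these medians carry no test.

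No gene of the 4 Fe lists was called in the combined deficiency against P deficiency, nor in the test of whether the Fe effect differed with P. OsNAS2 stood at 10505 and 10984 in the combined deficiency and 5758 and 6280 in P deficiency (0.84, adjusted p = 0.172), and OsNAS1 at 24731 and 24234 against 13535 and 15739 (0.75, adjusted p = 0.199). OsNAAT1 stood at 8622 and 9091 against 4009 and 4001 (1.14, adjusted p = 0.107). The groups of all 3 genes were apart. OsNramp1 stood at 1535 and 1688 in the combined deficiency and 634.9 and 857.7 in P deficiency (1.11, adjusted p = 0.178). OsYSL15 stood at 657.4 and 575.9 in the combined deficiency and 571.2 and 501.6 in P deficiency (0.20, adjusted p = 0.765). The test of the difference between the 2 Fe effects gave -1.78 for OsYSL15 (adjusted p = 0.167), -1.17 for OsNAS2 (adjusted p = 0.225) and 0.35 for OsNAAT1 (adjusted p = 0.68), none of them called.

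Of the other named rises LTP2-B was called in both comparisons, at 1311 and 1237 in the combined deficiency and 150.7 and 153.1 in P deficiency (2.94, adjusted p = 0.0134). OsMT-I-2c was called in both through the probe set named above, at 10066 and 9822 against 2612 and 2373 (1.99, adjusted p = 0.034). AMY1.1 stood at 12281 and 9387 in the combined deficiency and 196.4 and 126.6 in P deficiency (5.95, adjusted p = 0.06). OsIDS1 stood at 14869 and 15633 against 14602 and 12978 (0.15, adjusted p = 0.805), with bright signals in both groups. GRXC10 stood at 154.2 and 164.5 against 71.2 and 59.6 (1.11, adjusted p = 0.263), and CML15 at 662.5 and 652.9 against 677.6 and 716.6 (-0.08).

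The interaction, the Fe effect without P minus the Fe effect with P, was called for 23 probe sets, 0.0402% of those tested, 19 of them negative (0.0332%) and 4 positive (0.00699%). Of these 12 were among the 60 rises and 0 among the 11 falls. Leaving out either control array left 2 of the 12 called, and leaving out any other array left 0 (4258 to 5223 interactions at an unadjusted p under 0.05 in limma), with every sign kept. Interactions this far above their SE could hardly change sign with 1 array left out. LTP2-B was one of the 12, with an interaction of -3.01 on 1 probe set (SE 0.191, adjusted p = 0.0271). On its other probe sets the interaction was -1.96 (adjusted p = 0.517) and -1.86 (adjusted p = 0.298). OsACA1 was the other named gene, at 7.26 and 6.77 in the combined deficiency and 55.2 and 41.8 in P deficiency, with an interaction of -3.65 (adjusted p = 0.0322). LOC4352472 stood at 491.3 and 495.5 in the combined deficiency and 1075 and 1214 in P deficiency, so that its level was lower without Fe where P was lacking (interaction -6.61, adjusted p = 0.0271). LOC4341223 stood at 7.29 and 8.02 in the combined deficiency and 328.6 and 367.1 in P deficiency, where it had 139.1 and 92.8 in Fe deficiency and 3.21 and 2.02 in the control. Its interaction was -6.75 (adjusted p = 0.0167). With OsACA1, LOC4352472, LOC4341223 and 2 probe sets without a gene, 5 of the 60 rises were at least 2-fold lower in the combined deficiency than in P deficiency. LOC4341223 is named because of that count, after its values were seen.

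**Figure D4:**
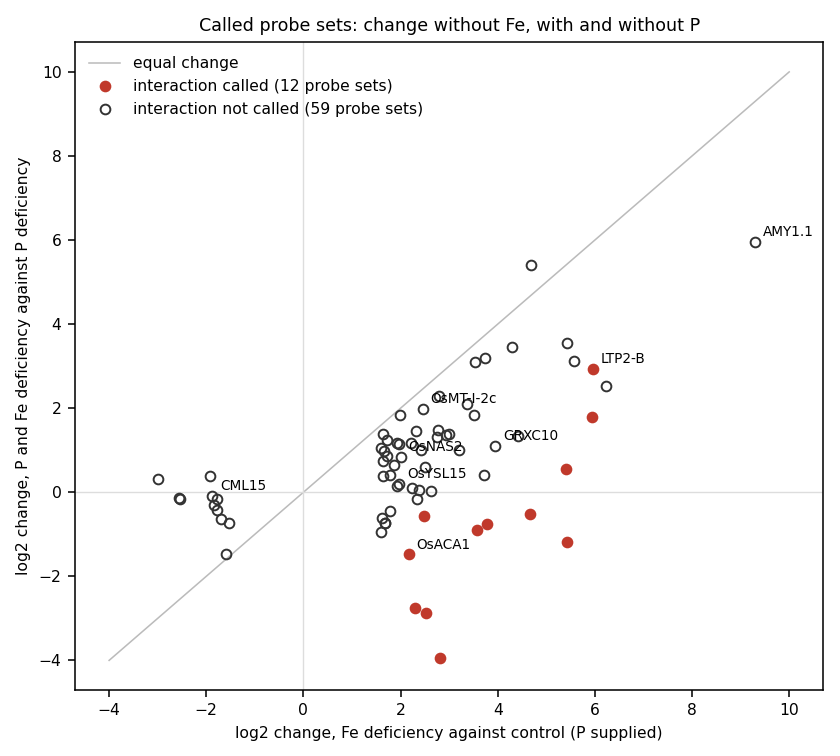
Change of the 71 called probe sets without Fe where P was supplied (horizontal axis, log2) and where P was lacking (vertical axis, log2), with the line of equal change. Of the 60 rises 59 lie below the line, the exception being a probe set of LOC4330830, and the 12 filled points with a called interaction include LTP2-B and OsACA1.

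The levels of all 4 groups show which arrays set these differences. Both Fe-deficiency arrays were the highest of the 8 for 50 of the 60 rises, against 6.08% of all probe sets. Both control arrays were the lowest for 40 of the 60, against 5.61%. For 42 of the 60 all 4 arrays without Fe lay above all 4 with Fe, as for 1.77% of all probe sets. For 5 of the 11 falls all 4 arrays without Fe lay below all 4 with Fe, as for 1.52%. For 9 of the 11 falls both control arrays were the highest of the 8, as for 7.52% of all probe sets. LOC4331647 is an example, at 832.4 and 1082 in the combined deficiency and 1061 and 1065 in P deficiency, all far below its control values. LOC4337638 stood at 116.5 and 106.0 in the combined deficiency and 125.4 and 123.0 in P deficiency, and LOC4347266 at 38.9 and 60.2 against 28.0 and 45.3. Since the same Fe-deficiency and control arrays chose these probe sets, the counts describe levels and are not a further test.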

How the data were processed

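Roots of rice were measured on 8 Affymetrix arrays, 2 in each of 4 groups taken from the treatment labels. The deposited values are linear array intensities, 1 per probe set and array, made in Affymetrix Expression Console 1.1 per the submitters' processing notes. Which algorithm summarised the probes is not given in these sources, and there were no detection calls. The mean intensity without the lowest and highest 2% was 500.1 on every array. Of 57381 probe sets, 123 AFFX and 64 RPTR controls were left out.

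The 57194 others were quantile-normalized and converted to log2(intensity + 16), which understates the changes of dim probe sets. They were fitted in limma 3.58.1 under R 4.3.3 with 1 mean per group over all 8 arrays (4 residual and 1.74 prior degrees of freedom). All adjusted p-values are limma's, adjusted by Benjamini-Hochberg over all 57194, and the script was tested on simulated data. The number of arrays limits the precision. The replicate numbers were not used as pairs.

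Names come from the platform's probe table and a japonica reference gene table (ASM3414082v1), while the plants were Indica. Exactly 1 gene was matched by 22436 probe sets, several by 95 and none by 34663. Lists were drawn by gene symbol with 1 probe set per gene, the brightest. Several genes planned for the Fe lists, among them OsIRO2, OsDMAS1 and the ferritin genes, were not matched by symbol. The named genes are every called gene with a name, the 5 largest rises and all 4 falls with a locus number only (1 probe set per gene, that with the smallest p), the 3 largest rises and falls without a gene, all members of the 4 Fe lists, up to 3 of every other list and the 10 largest in each direction short of the threshold with separate groups and an unadjusted p under 0.01. Members, lists and rules were chosen with earlier results of these data known. Sequences and promoters were not analysed here.

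Alternatives were added values of 1 and 64, median centring, the deposited values without further normalization, bright probe sets only, the 4 arrays alone, a replicate block, a trended prior and each array left out.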

Additional observations from a re-analysis of the deposited data

Results flagged for a closer look

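For 12 of the 60 probe sets that rose without Fe where P was supplied, the Fe effect differed between roots with and without P by the interaction test in limma. All 12 interactions were negative, meaning a smaller rise or a lower level without Fe where P was lacking. These calls did not outlast the loss of arrays. With a replicate block 0 of the 12 were called in limma (4815 interactions at an unadjusted p under 0.05), without any 1 of the Fe-deficiency, combined-deficiency or P-deficiency arrays 0 (4258 to 5223), and without either control array 2, while all 12 stayed negative. The replicate block leaves the interaction itself as it was, and interactions this far above their SE could hardly change sign with 1 array left out. Among named genes the interaction was -3.01 for 1 probe set of LTP2-B (adjusted p = 0.0271) and -3.65 for OsACA1 (adjusted p = 0.0322). The other probe sets of LTP2-B were not called in it. Among genes with a locus number it was -6.75 for LOC4341223 (adjusted p = 0.0167), -6.61 for LOC4352472, -4.86 for LOC4334975, -4.55 for LOC4349058, -4.15 for LOC4340877 and -3.06 for LOC4334918, the last 5 each with an adjusted p of 0.0271. LOC4349058 stood at 2751 and 2551 in Fe deficiency and 171.9 and 182.2 in the control. Where P was lacking it stood at 153.2 and 185.2 without Fe and 248.5 and 354.5 with Fe. Among probe sets without a gene the interactions were -5.38, -5.18, -5.06 and -4.48 (adjusted p from 0.0167 to 0.0271). Most of these probe sets had control values below the array median of 57.7, so the sizes depend on the added value of 16. The probe sets were first chosen by their change with P supplied, which enters the interaction. Groups of 2 arrays were not searched for single arrays that stand apart.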

How the results depend on the processing

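The number of calls depended strongly on the settings, while no called probe set changed its sign under any alternative (71 probe sets). For arrays left out in turn and for the added values that follows from groups that do not overlap. The bright-only fit, the 4 arrays alone, the replicate block and the trended prior leave the change itself as it was. Only median centring and the deposited values could have turned a sign. With an added value of 1 in place of 16, 27 rose and 5 fell in Fe deficiency against the control, and with 64 these were 164 and 49. Among bright probe sets only they were 200 and 75, with a trended prior 252 and 165, and with median centring 42 and 4, where OsNAS1, OsNAS2, OsYSL15, OsIDS1, ML and Cht1 were no longer called. With the deposited values they were 67 and 9, and OsNAS1 was no longer called. In the limma fit on the 4 arrays both were 0 (4922 at an unadjusted p under 0.05). No label says that the replicate numbers pair the arrays, and their deviations correlated at -0.017 to 0.017 between groups. With a replicate block 14 rose and 0 fell in limma (4617 at an unadjusted p under 0.05), all 14 among the 71, and no other contrast had a call (0). Leaving out 1 array gave 0 to 10 rises and 0 falls. In roots lacking P, the combined deficiency against P deficiency had 6 rises and 4 falls with an added 1, and 88 and 30 with 64. There were 190 and 63 among bright probe sets, 504 and 203 with the trended prior, and 17 and 9 with the deposited values. Leaving out any 1 array gave fewer calls in all than the main fit. The interaction had 5 negative and 1 positive call with an added 1, 49 and 14 with 64, 49 and 21 among bright probe sets, 160 and 195 with the trended prior, and 0 to 5 negative and 0 positive without 1 array. Leaving out 1 array turned the sign of 7 genes that were not called, with lowest and highest changes of -0.118 and 0.464 for IDEF1, -0.561 and 0.228 for OsbZIP83, -0.232 and 0.517 for OsVIT1, -0.507 and 2.053 for LTP-2, -0.021 and 1.496 for OsETR4, -0.977 and 0.231 for OsPT6 and -0.938 and 0.169 for GST-I. The median change of the mugineic acid synthesis list stayed between 0.56 and 0.75 and that of the transport list between 0.60 and 1.16, while list counts of rises fell to 0 in some fits and reached 5 and 3 in others. Intensities below the array medians are not shown to lie above background.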
